A study of Mus musculus with 8 samples.

Results

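The 71 genes that encode receptors for glutamate, GABA, glycine and acetylcholine were followed in 8 RNA-seq libraries of motor neurons derived from mouse embryonic stem cells. They were the protein-coding genes of the deposited tables whose symbols name a subunit of an ionotropic or metabotropic glutamate receptor, a type A or rho GABA receptor, a glycine receptor, or a nicotinic or muscarinic acetylcholine receptor. They were chosen by symbol and not by their values, and they were 71 of 55471 gene identifiers and of 21974 protein-coding genes. There were 18 genes of ionotropic and 8 of metabotropic glutamate receptors, 19 of GABA receptors, 5 of glycine receptors, 16 of nicotinic and 5 of muscarinic receptors. The type B GABA receptor genes fall outside the rule and were counted among the partner genes below. The antisense RNA locus Chrna1os matched by name but is not coding and was left out.

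All 8 libraries came from HBG3 cells, a mouse stem cell line in which the Hb9 promoter, active in motor neurons, drives a green fluorescent protein reporter, and all were taken 3 days after the dissociated cells were plated. The bait was the long noncoding RNA Lhx1os, pulled down through biotinylated antisense probes of 20 nt in 2 sets, ODD and EVEN, which both target every isoform. Probes against the LacZ mRNA served as the negative control pull-down, and Input was the sample with which each pull-down was compared. Each of the 4 groups had 2 libraries, 1 from each of 2 independent experiments, so replicate 1 of every group belongs to experiment 1 and replicate 2 to experiment 2. No group was a genetic or drug treatment, and all 4 hold RNA of the same kind of culture.

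As background, ionotropic receptors are ion channels assembled from subunits, and metabotropic and muscarinic receptors signal through G proteins. Spinal motor neurons are excited through AMPA, kainate and NMDA receptors for glutamate and inhibited through glycine and GABA receptors. They release acetylcholine, which acts on nicotinic receptors of muscle and of spinal interneurons. Subunit use changes during maturation: Grin2b gives way in part to Grin2a, Glra2 to Glra1, and in muscle Chrng to Chrne.

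The bait itself had 55 and 61 counts in Input, 16 and 28 counts with LacZ, 2239 and 371 with ODD, and 1767 and 283 with EVEN, so each Lhx1os probe set recovered it in both experiments and more in experiment 1. Total counts were 24628435 and 20515501 in Input and ranged from 7632775 to 12563449 in the pull-downs, so low genes were known less precisely in the pull-downs. The summed FPKM (counts per kilobase of gene length, scaled to the total count of the library) of 8 motor neuron markers was 82.0 in Input of experiment 1 and 271 in Input of experiment 2. For 6 oligodendrocyte lineage markers the sums were 150 and 26.6, for 6 astrocyte markers 67.4 and 32.9, and for 6 neural progenitor markers 504 and 341. The 7 skeletal muscle markers summed to 0.169 and 0.716 and the 4 pluripotency markers to 0.203 and 0.121. The 10 spinal interneuron markers summed to 26.3 and 30.9, and the 6 fibroblast or endothelium markers to 24.4 and 12.7. The cultures thus held motor neuron RNA together with RNA of progenitors and glial lineages, in proportions that differed between the experiments. In such bulk RNA, fewer cells of a type and less RNA per cell cannot be told apart.

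The series is titled for pairing between RNAs, so the transcripts were searched for stretches that could pair with Lhx1os. The longest coding transcript of each tested receptor gene was compared with the 3 annotated Lhx1os isoforms of 589, 599 and 524 nt for the longest stretch that is exactly the reverse complement of Lhx1os. Such a stretch of at least 15 nt was found in 3 of 49 tested receptor genes, or 6.12%, and in 3.88% of 13434 tested protein-coding genes. The receptor transcripts searched were longer, with a median of 4771 nt against 3295.5 nt. The 2 shares were not adjusted for this length, and the receptor share rests on 3 genes. The stretches of Chrnb4 and Grin2a are shown 5′ to 3′ as they stand in the receptor transcript, because they are the letters through which a receptor mRNA could pair with the bait. That of Chrnb4 lies in an annotated 3′ untranslated region and that of Grin2a in coding sequence.

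Chrnb4: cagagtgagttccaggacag
Grin2a: tctccatcagcaggg

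The stretch of Chrnb4 was 20 nt long, and Chrnb4 had a log2 fold change of -0.90 ± 0.26 (SE) in the pull-downs against Input and of -0.24 ± 0.30 in the Lhx1os probes against LacZ. Grin2a had a log2 fold change of 0.30 ± 0.47 against Input. The longest such stretch in Gria2, Grik2 and Chrna3, whose differences are described below, was 11 nt, which is also the median of the 13434 coding genes. Low-complexity sequence made up a median of 2.49% of the tested receptor transcripts and 1.86% of the coding transcripts. A match is a description of letters and not an observed duplex.

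In Input, 36 of the 71 genes were present, which here means an FPKM of at least 0.5 and at least 10 counts in both Input libraries. These were 16 of 18 ionotropic glutamate receptor genes, 3 of 8 metabotropic ones, 7 of 19 GABA, 3 of 5 glycine, 6 of 16 nicotinic and 1 of 5 muscarinic receptor genes. The filter on low counts passed 49 genes to the tests. Of the 22 others, 7 had no count in any of the 8 libraries: Grm6, Gabrp, Gabra6, Chrnd, Chrng, Chrna6 and Chrnb3. The highest count of any untested gene in a library was 26. A count of 0 is compatible with up to 3 counts in a library, by counting error alone.

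**Figure D1:**
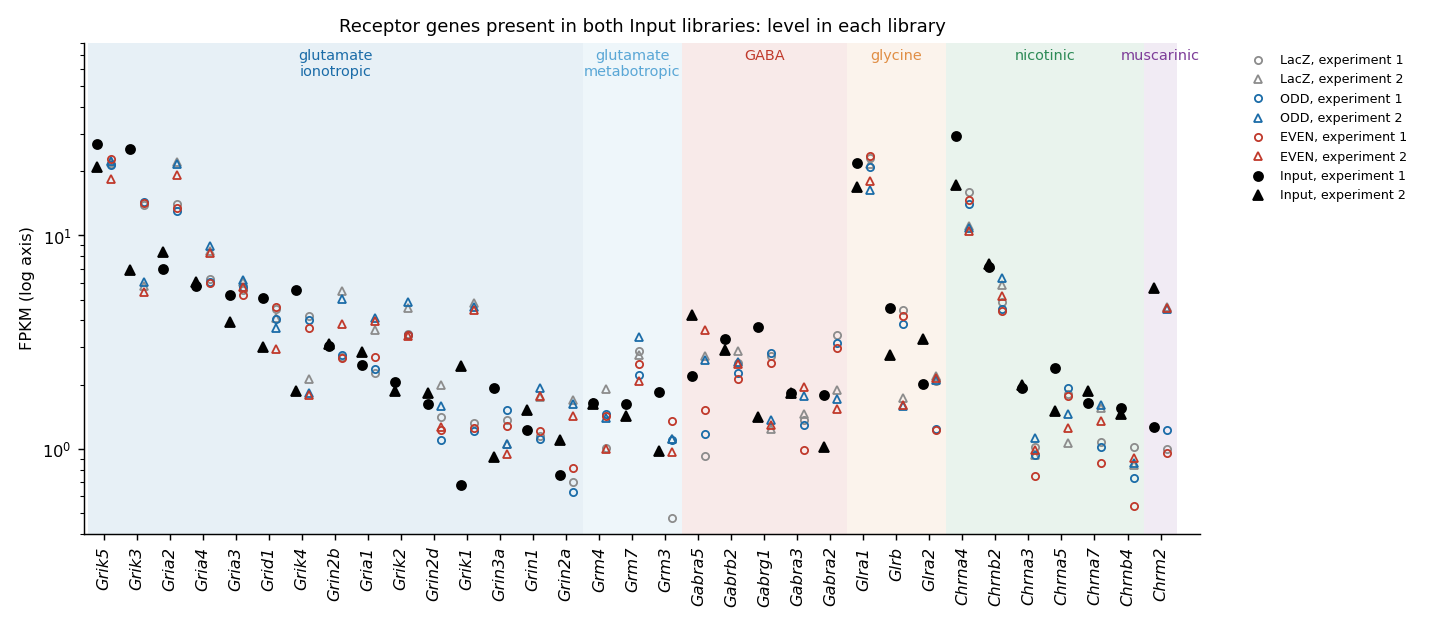
FPKM (log axis) of 33 of the receptor genes present in both Input libraries, grouped by transmitter. Filled symbols are Input and open symbols the LacZ, ODD and EVEN pull-downs, with circles for experiment 1 and triangles for experiment 2. Of the genes drawn, Grik5, Chrna4, Glra1 and Grik3 had the highest Input means.

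Among ionotropic glutamate receptors, the kainate subunit Grik5 was the highest, with an FPKM of 26.70 and 20.96 in the Input libraries of experiments 1 and 2. Grik3, another kainate subunit, stood at 25.5 and 6.89, so its mean of 16.2 ± 13.2 (SD, n = 2) did not differ from that of Grik5, 23.8 ± 4.06, beyond the spread. Gria2, the AMPA subunit whose edited form blocks calcium entry, followed at 6.96 and 8.38. The other AMPA genes Gria4 and Gria3 had Input means of 5.93 ± 0.193 and 4.58 ± 0.933 (SD, n = 2), and Gria1 had 2.65 ± 0.264. The order Gria2, Gria4, Gria3, Gria1 held in Input of both experiments. Gria2 made up 34.04% and 39.51% of the summed AMPA subunit FPKM.

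NMDA receptor genes were lower. Grin2b, the subunit typical of young neurons, had an FPKM of 3.04 and 3.11, against 0.754 and 1.10 for Grin2a. Grin1, which every NMDA receptor needs, had 1.22 and 1.53. Metabotropic glutamate receptors were led by Grm4, Grm7 and Grm3, with Input means of 1.64 ± 0.00915, 1.52 ± 0.139 and 1.41 ± 0.619 (SD, n = 2), values that did not differ beyond the spread of Grm3.

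For the inhibitory receptors, the glycine receptor subunit Glra1 had an FPKM of 21.8 and 16.9 and exceeded Glra2, with 2.02 and 3.28, in both experiments. Glrb, the beta subunit that anchors glycine receptors to gephyrin, had 4.56 and 2.76. Of the GABA receptor alpha subunits, Gabra5 had 2.18 and 4.25 and Gabra2 had 1.80 and 1.02. The 3 rho subunit genes reached at most 4 counts in any library.

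Of the acetylcholine receptors, Chrna4 and Chrnb2, which together form the common high-affinity nicotinic receptor of the brain, had an FPKM of 29.3 and 17.3, and of 7.13 and 7.35. The ganglionic subunits Chrna3, Chrnb4 and Chrna5 and the homomeric subunit Chrna7 had Input means between 1.51 and 1.96. The muscle subunits were nearly unmeasured: Chrna1 and Chrne each reached at most 1 count in any library, and Chrnd and Chrng had 0 in all 8, while Chrnb1 had 20 and 24 counts in Input. The muscarinic receptor Chrm2, which lowers excitability through inhibitory G proteins, had 1.27 and 5.66. Chrm3 had 0.403 and 0.491 and Chrm4 0.367 and 0.372.

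The pull-downs were then compared with Input, first as the mean of LacZ, ODD and EVEN, which asks whether a receptor mRNA is recovered by capture whatever the probe. A gene was called where its adjusted p in edgeR's quasi-likelihood test was under 0.05. The kainate subunit Grik2 rose and the nicotinic subunit Chrna3 fell. In all, 2 were higher and 1 was lower of 49 tested receptor genes, against 1.25% higher and 2.16% lower of all 13455 tested protein-coding genes. The lower count is near that background, and the higher one rests on 2 genes. Across all 16524 genes tested, which include noncoding loci, 8.37% were higher and 1.79% lower. The numbers pair the libraries of an experiment, and with the experiment as a replicate block 7 receptor genes were higher and 7 lower. With the block the background was 6.75% higher and 15.8% lower of coding genes. Oligodendrocyte lineage markers were lower in the pull-downs than in Input of the same experiment, with sums of 102 to 106 against 150 in experiment 1 and of 18.8 to 20.0 against 26.6 in experiment 2. Neural progenitor markers were also lower, with sums of 423 to 453 against 504 and of 284 to 290 against 341, and so were spinal interneuron markers, with 20.1 to 21.3 against 26.3 and 23.4 to 26.0 against 30.9. Astrocyte and fibroblast or endothelium markers were lower in experiment 1, at 50.2 to 53.1 against 67.4 and 12.3 to 13.6 against 24.4, and in experiment 2 their sums overlapped Input. Motor neuron markers summed to between 90.6 and 96.5 against 82.0, and to between 242 and 252 against 271. No marker gene was called without the block, and the part of these cell types in the receptor values was not tested.

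Grik2 had an FPKM of 2.06 in Input of experiment 1 and 1.86 in that of experiment 2, and in the same order LacZ gave 3.44 and 4.59, ODD 3.41 and 4.89, and EVEN 3.41 and 3.37. All 6 pull-down libraries were above both Input libraries, and LacZ was as high as ODD and EVEN. The log2 fold change was 0.96 ± 0.19 (SE, adjusted p = 0.0235, edgeR), or 1.94-fold, on 348 to 678 counts a library.

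Chrna3, the alpha subunit of the ganglionic nicotinic receptor, had an FPKM of 1.93 and 2.00 in Input, while LacZ gave 1.02 and 0.937, ODD 0.937 and 1.13, and EVEN 0.750 and 0.987. All 6 pull-down libraries were below both Input libraries, and no probe set stood apart. The log2 fold change was -1.05 ± 0.19 (adjusted p = 0.0177, edgeR), or 0.484 of the Input level. Counts were 250 and 216 in Input and 41 to 62 in the pull-downs.

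Gria2 missed the threshold at an adjusted p of 0.0506, with the largest log2 fold change of the tested receptor genes, 1.15 ± 0.29. LacZ gave an FPKM of 14.05 and 22.01, ODD 12.98 and 21.62, and EVEN 13.43 and 19.22, all above the Input values of 6.96 and 8.38. In each pull-down group experiment 2 was the higher library. With the replicate block the adjusted p was 0.00082, and in DESeq2 it was 0.00185.

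**Figure D2:**
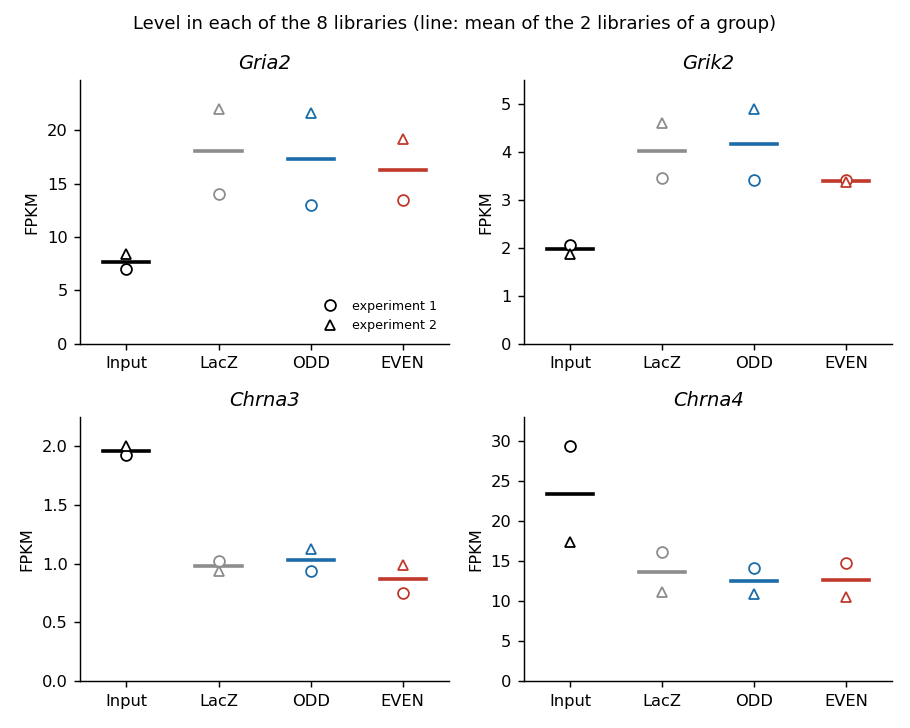
FPKM in each of the 8 libraries for 4 receptor genes (linear axes from 0; circles, experiment 1; triangles, experiment 2; bars, mean of the 2 libraries of a group). Gria2 and Grik2 lie above Input in all 6 pull-down libraries, and Chrna3 and Chrna4 lie below it.

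The calls were lost without single libraries while the log2 fold changes stayed between 0.86 and 1.04 for Grik2 and between -1.13 and -0.99 for Chrna3, whichever of the 8 libraries was left out. Without Input replicate 1 or Input replicate 2, the adjusted p was 0.133 and 0.140 for Grik2, and 0.117 and 0.0849 for Chrna3. Without LacZ replicate 2 they were 0.0514 and 0.0538. Grik2 also missed the threshold without EVEN replicate 1 or 2, at 0.0546 and 0.0542. Gria2 passed it without ODD replicate 1, at 0.0376.

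Base composition moved with some of these values. The longest transcripts of Gria2, Grik2 and Gabra2 hold 36.8%, 37.9% and 38.4% G or C, against a median of 46.3% over the 49 tested receptor genes. With the block and with the trend of each library over GC content taken out, their log2 fold changes against Input were 0.02, 0.07 and -0.00, and none was called. The trend was fitted over coding and noncoding genes together. Among the genes tested were 1355 loci of TEC, a class of unproven gene models, with a median log2 fold change of 2.67. Over tested coding genes alone, GC and log2 fold change had a Pearson's r of -0.15. The part of the noncoding loci in the trend was not tested. Chrna3, at 46.3% GC, kept -1.04 (adjusted p = 0.00191) in edgeR. In that fit 4 receptor genes were higher and 14 lower. Grik1, Grm7 and Glra1 were among the 4, and 6 of the 14 were GABA receptor genes, against 1 with the block alone. GABA and glycine receptor genes had the lowest median GC of the classes, 42.1% and 41.0%. Their median log2 fold changes went from -0.33 and -0.19 with the block to -0.52 and -0.85 with the trend also removed. Of tested coding genes 11.2% were higher and 15.4% lower in that fit.

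**Figure D3:**
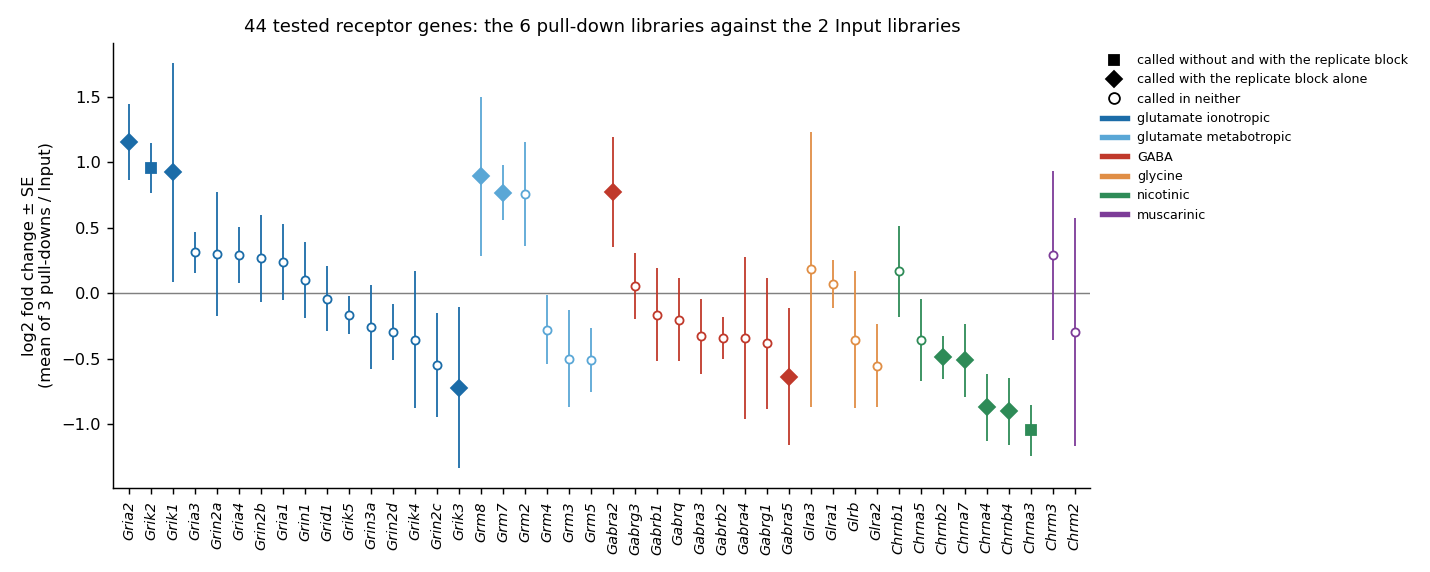
Log2 fold change ± SE of the mean of the 3 pull-downs against Input for 44 of the 49 tested receptor genes, ordered within each transmitter class. Squares are called with and without the replicate block, diamonds with the block alone. All 4 AMPA genes (Gria) lie above 0 and all 6 neuronal nicotinic genes below it.

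By class, the median log2 fold change was 0.24 over 17 ionotropic and -0.04 over 7 metabotropic glutamate receptor genes. It was -0.33 over 12 GABA, -0.14 over 4 glycine, -0.51 over 7 nicotinic and -0.00 over 2 muscarinic receptor genes. Over all 49 it was -0.26, against -0.09 over tested coding genes and -0.02 over all genes. Of the 49, 19 were positive, against 39.6% of tested coding genes. The receptor median depended on the experiment: on FPKM ratios within an experiment it was -0.27 in experiment 1, with 13 of 49 above 0, and 0.02 in experiment 2, with 26 above 0. Without Input replicate 1 the fitted median was 0.07.

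The 4 AMPA subunit genes all had positive log2 fold changes, though Gria3 had -0.21 once the GC trend was taken out of the blocked fit. Gria3, Gria4 and Gria1 had 0.31 ± 0.16, 0.29 ± 0.22 and 0.24 ± 0.29, with adjusted p of 0.284, 0.478 and 0.685 by edgeR. The share of Gria2 in the summed AMPA FPKM lay between 47.8% and 54.9% in the 6 pull-down libraries, above both Input shares. The kainate genes split: Grik1 had 0.92 ± 0.84 and Grik2 rose, while Grik3, Grik4 and Grik5 had -0.72 ± 0.61, -0.35 ± 0.52 and -0.16 ± 0.15. With the block Grik1 was called higher (adjusted p = 0.00143) and Grik3 lower (adjusted p = 0.0167). With the GC trend also removed Grik1 was still called, while Grik3 was not (-0.30, adjusted p = 0.133), and without Input replicate 1 Grik3 had 0.52. None of the 6 tested NMDA receptor genes was called in either fit, and their log2 fold changes ran from -0.55 for Grin2c to 0.30 for Grin2a.

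Of the metabotropic glutamate receptors, the presynaptic group III genes Grm7 and Grm8 had 0.77 ± 0.21 and 0.90 ± 0.61 (adjusted p = 0.0663 and 0.436), and both were called higher with the block, at 0.018 and 0.0258. With the GC trend also removed Grm7 was still called (adjusted p = 0.0141) and Grm8 was not (0.61, adjusted p = 0.0695). Grm7 had an FPKM of 1.62 and 1.42 in Input and between 2.09 and 3.36 in the pull-downs. Grm5 and Grm3 had the most negative values, -0.51 ± 0.25 and -0.50 ± 0.37.

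All 6 tested neuronal nicotinic receptor genes had negative log2 fold changes, though Chrna5 had 0.02 without Input replicate 1. Most tested coding genes were negative too, with 39.6% positive. Beside Chrna3, Chrnb4 had -0.90 ± 0.26, Chrna4 -0.87 ± 0.26, Chrna7 -0.51 ± 0.28, Chrnb2 -0.49 ± 0.17 and Chrna5 -0.36 ± 0.31, with adjusted p of 0.0749, 0.0852, 0.324, 0.121 and 0.558 by edgeR. Chrna4 had an FPKM of 29.3 and 17.3 in Input, and its lowest pull-down value was 10.502 and its highest 16.04. In each group experiment 1 was the higher library. In 5 of the 6 genes every pull-down library was below both Input libraries. That count over all receptor genes was 8 below and 6 above, against 15.4% below and 9.07% above of tested coding genes. With the block Chrna4, Chrna3, Chrnb2, Chrnb4 and Chrna7 were called lower, at 0.00106, 0.00238, 0.0112, 0.017 and 0.0385. With the GC trend also removed Chrnb2 was no longer called (log2 fold change -0.25, adjusted p = 0.12).

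Chrna5, Chrna3 and Chrnb4 are neighbours on chromosome 9 of GRCm38 between 54980880 and 55048779, with Chrna5 on the plus strand and the other two on the minus strand. Their log2 fold changes were -0.36, -1.05 and -0.90 in that order. Receptor genes within 1000 kb of each other formed 10 such clusters that hold 27 of the 71 genes. Members of a cluster did not share a direction throughout: on chromosome 5 Gabra2 had 0.78 and Gabrg1 -0.38, and on chromosome 3 Gria2 had 1.15 and the adjoining Glrb -0.35.

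Promoters are shown for Chrna3 and Gria2, which had the most negative and the most positive log2 fold change, whose RefSeq start is also the outer end of the gene in GENCODE M21, the annotation the coordinates come from. They are the 250 bases before the start on the minus strand of GRCm38.p6, at chr9:55026563-55026812 and chr3:80802836-80803085, with GGGCGG or its reverse complement CCGCCC, the core of the GC box, in capitals.

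Chrna3: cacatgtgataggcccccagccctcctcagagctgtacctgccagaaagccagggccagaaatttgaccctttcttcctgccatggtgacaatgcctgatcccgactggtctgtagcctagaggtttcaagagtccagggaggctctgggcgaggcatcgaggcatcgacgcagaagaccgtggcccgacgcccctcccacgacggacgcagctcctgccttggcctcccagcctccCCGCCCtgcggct
Gria2: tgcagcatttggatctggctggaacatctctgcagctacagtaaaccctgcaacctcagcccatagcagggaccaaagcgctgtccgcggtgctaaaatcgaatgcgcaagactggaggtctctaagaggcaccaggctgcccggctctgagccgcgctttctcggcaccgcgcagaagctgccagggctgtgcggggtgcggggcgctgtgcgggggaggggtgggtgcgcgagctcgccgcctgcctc

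Chrna3 held 1 GC box and 13 CG dinucleotides, and Gria2 held no GC box and 19 CG dinucleotides in these bases. RefSeq promoters were found for 50 of the 71 receptor genes. A GC box stood in 54.2% of 24 promoters of genes present in Input, in 80% of 10 of genes tested but not present, in 18.8% of 16 of genes that were not tested, and in 32.7% of all 32851 promoters of the same length. The median number of CG dinucleotides was 11, 14.5 and 2.5 in these 3 sets and 6 in all promoters.

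The GABA receptor genes lay mostly below 0, with 2 of 12 positive, against 39.6% of tested coding genes. The 2 were Gabra2 at 0.78 ± 0.42 and Gabrg3 at 0.05 ± 0.25. No GABA receptor gene was called by edgeR or DESeq2, and Gabra5 had the most negative value, -0.64 ± 0.52. With the block Gabra2 was called higher (adjusted p = 0.00253) and Gabra5 lower (adjusted p = 0.0141). Gabra2 had an FPKM of 1.80 and 1.02 in Input, against 3.43 and 1.89 in LacZ, with ODD at 3.13 and 1.72 and EVEN at 2.96 and 1.54. Within each experiment every pull-down exceeded its own Input, but the pull-downs of experiment 2 overlapped Input of experiment 1. Of the glycine receptor genes Glra1 had 0.07 ± 0.18, Glrb -0.35 ± 0.52 and Glra2 -0.55 ± 0.32. With the GC trend removed Glra1 was called higher (0.32, adjusted p = 0.044) and Glrb and Glra2 lower (-0.83 and -0.87, adjusted p = 0.00554 and 0.00859). Glra3 reached at most 17 counts in a library, and its value of 0.18 ± 1.05 carries little information.

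Chrm2 and Chrm3, the tested muscarinic genes, had -0.30 ± 0.87 and 0.29 ± 0.65. Chrnb1, the only tested muscle nicotinic gene, had 0.17 ± 0.35. None of the 3 was called in any comparison with or without the block. With the GC trend also removed Chrm2 was called lower against Input (adjusted p = 0.0118).

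Each pull-down was also set against Input on its own. These 3 comparisons share the Input libraries, so their values are given side by side only. ODD against Input called 1 receptor gene higher and 0 lower, against 0.543% and 0.453% of coding genes. EVEN called 0 higher and 1 lower, against 0.535% and 0.349%, and LacZ 1 higher and 0 lower, against 0.557% and 0.528%. At an unadjusted p under 0.05 there were 8 receptor genes with ODD, 8 with EVEN and 6 with LacZ, against 10.5%, 11.7% and 10.5% of coding genes. Grik2 was the gene called higher with ODD (1.07 ± 0.22, adjusted p = 0.0355) and with LacZ (0.99 ± 0.22, adjusted p = 0.0439), and with EVEN it had 0.81 ± 0.22 (adjusted p = 0.0955). Chrna3 was the gene called lower with EVEN (-1.15 ± 0.26, adjusted p = 0.0498), and it had -0.94 ± 0.25 with ODD and -1.05 ± 0.26 with LacZ. With the block the counts were 7 higher and 3 lower for ODD, 6 and 4 for EVEN, and 6 and 5 for LacZ. The coding background with the block was 4.23% and 7.95% for ODD, 5.24% and 7.76% for EVEN, and 3.72% and 8.52% for LacZ. The Grik2 calls with ODD and with LacZ were lost without either Input library, at adjusted p of 0.157 to 0.182, and the Chrna3 call with EVEN was lost without any 1 of the 8 libraries, at 0.0873 to 0.229. The ODD call of Grik2 was also lost without ODD replicate 2 or either EVEN library, and its LacZ call without either LacZ or either EVEN library. The Grik2 call was also lost with the GC trend removed, where its log2 fold change was 0.17 with ODD and 0.05 with LacZ.

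The comparison that asks about Lhx1os itself is ODD and EVEN against LacZ. No receptor gene was called higher or lower by edgeR, with or without the block, and none was by DESeq2. The background was 0.0% in both directions over all 16524 genes. Lhx1os itself, with a log2 difference of 5.42 ± 1.10 (SE), had an adjusted p of 1.00 in that comparison, so the count of 0 does not bound smaller differences. At an unadjusted p under 0.05 there was 1 receptor gene, against 1.0% of coding genes. The median log2 difference over the 49 genes was -0.05, and Gria2, Grik2 and Chrna3 had -0.05 ± 0.28, -0.05 ± 0.19 and 0.00 ± 0.23 (SE). Among the 3 largest differences were those of Chrnb1 at 0.88 ± 0.42 and Grm8 at 0.60 ± 0.65. Where the low-count filter was dropped, 1 receptor gene was called lower, and the share of coding genes in that setting is not given here.

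The tested loci annotated inside receptor genes had larger fold changes than their hosts. The annotation places 47 noncoding loci on the same strand within the spans of 24 receptor genes, and 9 of them, in 4 hosts, had enough counts to be tested. These are short stretches annotated as sense intronic or as TEC, a class of unproven gene models. Of the 9, 8 were called higher in the pull-downs than in Input, against 68.5% of 1508 tested loci of these classes. Their median log2 fold change was 3.99, against 2.61 for those classes, and each of the 9 exceeded its host. With the block all 9 were called, against 86.5% of those loci. None of the 9 reached the level of the low-count filter in both Input libraries, so each passed it through pull-down libraries. That selection favours loci that are high in the pull-downs. The calls and the excess over the hosts were thus in part fixed by it and are no independent support for a rise.

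Grik2, with a span of 694 kb on chromosome 10, hosted 6 of the tested loci. The largest change was that of Gm47022 at chr10:49700363-49702834, with 7 and 4 counts in Input and at least 30 in every pull-down library. Its log2 fold change was 4.201 ± 0.34 (SE), against 0.96 for the host, and the other 5 loci ran from 2.77 to 4.17. Gm44741 in Chrna7 was the locus not called, at 1.37 ± 0.51, and Chrna7 had -0.51. Gm47405 in Chrm3 had 0 and 1 count in Input and 62 in the pull-downs together. Scaled to total counts this is a ratio of 43.0 with an exact 95% interval from 7.44 to 1726, which covers counting error only. None of the 9 was called between the Lhx1os probes and LacZ, where their median log2 difference was -0.28.

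**Figure D4:**
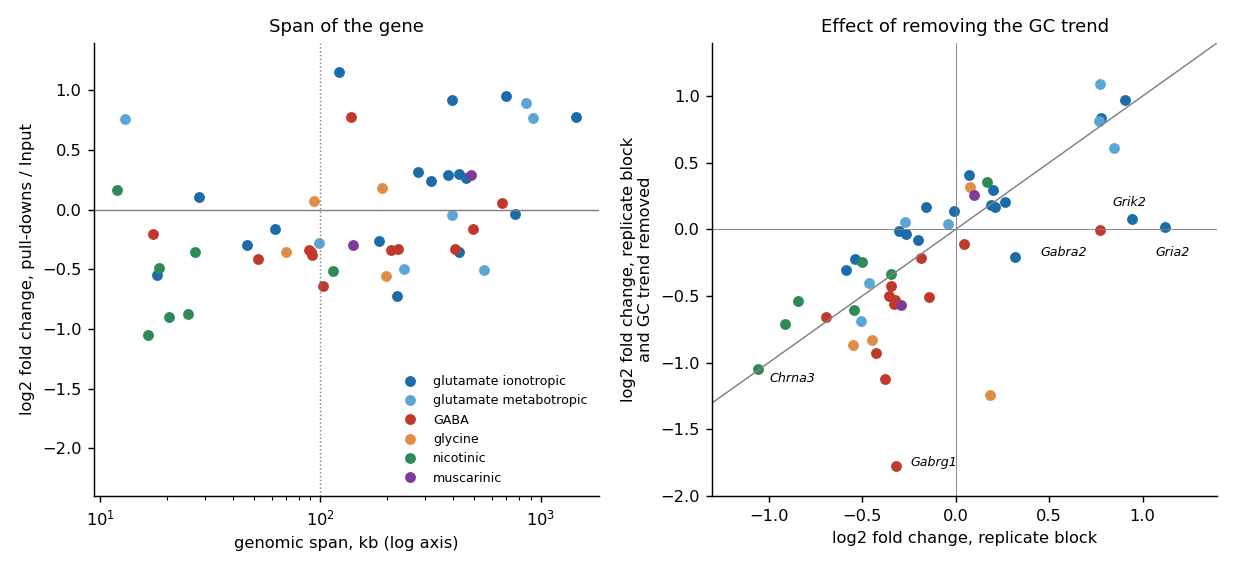
Left, log2 fold change against Input by genomic span (log axis; dotted line at 100 kb) for the 49 tested receptor genes, coloured by class. Right, log2 fold change with the replicate block before and after the GC trend was removed, with the line of equality. Gria2, Grik2 and Gabra2 drop to near 0 on the right axis while Chrna3 stays near the line.

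Receptor genes are long, and length moved with the fold change. The median genomic span of the tested receptor genes was 184 kb, against 26.2 kb for tested coding genes, and 61.2% spanned over 100 kb, against 16.3%. The 30 genes over 100 kb had a median log2 fold change of 0.01 with 15 positive, 2 called higher and 0 lower. The 19 shorter genes had a median of -0.35 with 4 positive, 0 called higher and 1 lower. Of tested coding genes of any span 1.25% were called higher and 2.16% lower, and the lower count rests on 1 gene. Among coding genes over and up to 100 kb the medians were -0.02 and -0.10, with 48% and 37.9% positive. Of the coding genes over 100 kb 2.37% were called higher and 1.23% lower. Over the 49 genes the log2 span and the log2 fold change correlated with Pearson's r of 0.43 and Spearman's rho of 0.46, as a description across genes that share 8 libraries. Over tested coding genes the values were 0.095 and 0.12. Exon length gave 0.44 and 0.47 over the 49 genes, so span and exon length cannot be told apart here. All but Chrna7 of the tested neuronal nicotinic genes spanned between 16.5 and 26.9 kb.

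The 2 experiments differed in several receptor genes in the same direction in all 4 groups. At a ratio of at least 1.5 in every group, 5 receptor genes were higher in experiment 2 and 6 were lower, against 4.98% and 3.3% of coding genes. Chrm2 was 4.47-fold higher for Input, 4.64-fold for LacZ, 3.71-fold for ODD and 4.797-fold for EVEN, and Grik1 3.60-, 3.64-, 3.84- and 3.59-fold. Grm8, Gabra5 and the scarcely counted Glra3, which was at 0 in LacZ replicate 1, were also higher. Grik3 was lower in experiment 2 by 3.70-fold in Input and by 2.403-, 2.372- and 2.594-fold in LacZ, ODD and EVEN. Gabra4, Gabrg1, Grik4, Glrb and Gabra2 were lower too, and Gabra2 by 1.76- to 1.92-fold. At a ratio of 2, Chrm2, Grik1 and Grm8 were higher and Grik3 was lower, against 2.1% and 1.4% of coding genes.

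These ratios were described with no test. In a test of the experiment term of the fit with the replicate block, 13 of the 49 tested receptor genes were higher in experiment 2 and 12 lower at an adjusted p under 0.05 (edgeR), against 16.0% and 14.2% of coding genes. That test was added after the ratios were seen, and it compares these 2 experiments only. It treats the libraries of an experiment as replicates, although they are not independent repeats of that experiment. Its adjusted p thus measures spread among such libraries and not between experiments. Whether other experiments would differ in these genes cannot be read from it. All 11 genes past the ratio of 1.5 in every group were among those called. They were picked for that ratio in the same 8 libraries, so their calls are no separate support. The marker sums given above moved with them: motor neuron markers were higher in experiment 2 in every group, with pull-down sums of at most 96.5 in experiment 1 and at least 242 in experiment 2, and oligodendrocyte lineage markers were lower, at no less than 102 against no more than 20.0. Their part in these ratios was not tested.

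**Figure D5:**
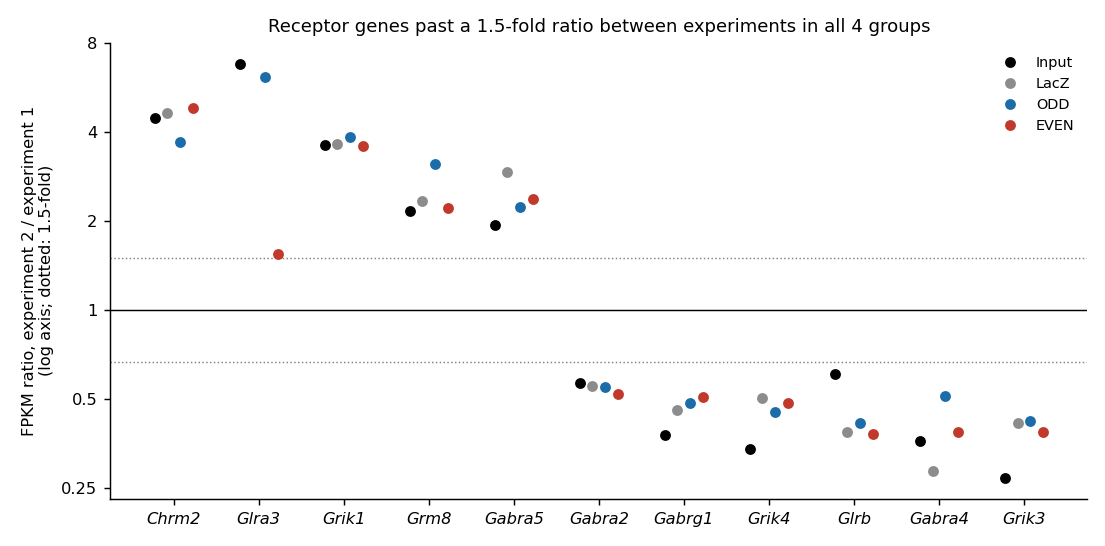
FPKM of experiment 2 over experiment 1 (log axis; dotted lines at 1.5-fold in either direction) in each group, for the 11 receptor genes past that ratio in all 4 groups. The 4 points of a gene are its groups, and Glra3 has no LacZ point because its denominator is 0.

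The partner genes of these receptors were taken from 4 lists of 78 genes in all. At an unadjusted p under 0.05, 2 of the 74 tested were higher and 13 lower, against 5.71% and 11.1% of coding genes. Of 34 tested genes for auxiliary and scaffold proteins of glutamate receptors, 0 were higher and 3 lower in the mean of the pull-downs against Input: the AMPA receptor auxiliary subunits Cacng7 and Cacng4, at -1.33 ± 0.19 and -0.56 ± 0.12, and the secreted synapse organiser Cbln1, at -0.69 ± 0.15. Cacng7 had an FPKM of 28.9 and 28.3 in Input and between 9.53 and 13.7 in the pull-downs, so all 6 lay below both Input libraries. Of 21 tested genes for GABA and glycine receptor partners 0 were higher and 2 lower, Clptm1 and Lhfpl4, at -0.90 ± 0.21 and -0.76 ± 0.14. Of 13 tested acetylcholine receptor partners 0 were higher and 2 lower, the Ly6 family protein Ly6e and the nicotinic chaperone Tmem35a, at -1.18 ± 0.26 and -0.58 ± 0.13. None of 6 tested genes of glutamate supply was called, and 1 was lower at an unadjusted p under 0.05.

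Over the 74 tested partner genes 7 were called, all lower, with a median log2 fold change of -0.20, against 1.25% higher and 2.16% lower of coding genes. With the block 6 were higher and 18 lower, against 6.75% and 15.8% of coding genes, so the higher count is near that background. Among those higher with the block were Chat, the enzyme of acetylcholine synthesis, at 0.81 (adjusted p = 0.00121), and the synaptic adhesion gene Nlgn1, at 0.54. None of the 74 was called between the Lhx1os probes and LacZ. Leaving out any 1 of the 8 libraries took the 7 calls to 3 or fewer, and to 0 without Input replicate 1.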

How the data were processed

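RNA was sequenced from 8 libraries, 2 for each of Input, LacZ, ODD and EVEN, from a stranded, ribosomal RNA-depleted total RNA kit, per the labels' protocols. The authors deposited whole-number counts per Ensembl gene and FPKM values, which equal the count per gene length and column total. The submitters' processing notes name cutadapt 3.2, Bowtie2 2.4.2, Picard, HTSeq 0.13.5 and the GRCm38 build. For the counted annotation and its strand setting, nothing is given in the sources used here. Deposited lengths of all 71 genes equal merged exon lengths in GENCODE M21, from which coordinates and classes were taken. Sequences came from that release and from RefSeq promoters on GRCm38.p6.

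Counts were tested in R 4.3.3 with edgeR 4.0.16 (quasi-likelihood test, group as the term, all 8 libraries, TMM, default low-count filter, two-sided p, Benjamini-Hochberg over the 16524 genes tested, threshold 0.05). The SE is the log2 fold change over the root of F. Transcripts were masked with dustmasker 1.0.0 for low complexity. The labels list the replicate number as the batch, and libraries of equal number came from 1 experiment. Their deviations from the group mean had correlations of 0.506 to 0.708 in the 6 pairs of groups, so the number served as a block in an alternative fit. Other alternatives were DESeq2 1.42.0, RLE factors, total library size, no filter, only the groups compared, the block with a GC trend (natural spline, 5 degrees of freedom), limma 3.58.1 on log2(FPKM + 1) and log2(FPKM + 0.1), and each library left out. Total counts ran from 7632775 to 24628435 a library. With 2 libraries a group, p-values measure the spread between these libraries.

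Genes named are, per class, the 3 highest in Input, the 2 largest and 2 smallest changes, every gene called, the 3 largest differences from LacZ and the 10 largest ratios between experiments. Subunit pairs that switch with age, the other AMPA genes and genes behind small counts are named too, the last after their values were seen. Some genes that these rules name are not reported here. The receptor genes, the partner lists, the marker lists and the rules were chosen with earlier results of these data known.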

Additional observations from a re-analysis of the deposited data

Results flagged for a closer look

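In 3 tested receptor genes all 3 pull-downs were below Input in one experiment and above it in the other, with a ratio of at least 1.5 between the experiments' mean ratios. Grin2b had a mean pull-down to Input ratio of 0.892 in experiment 1 and 1.52 in experiment 2, a log2 difference of 0.77. Grin3a, an NMDA receptor subunit that lowers calcium flow, had 0.719 and 1.11, a log2 difference of 0.63. Chrm3 had 0.641 and 1.71, a log2 difference of 1.42, on 14 to 63 counts a library. With 1 library per group and experiment the difference was not tested. The share of coding genes that meet this rule is not given here, so the count of 3 cannot be read as unusual. Over all 49 tested receptor genes, 13 had a mean log2 ratio above 0 in experiment 1 and 26 in experiment 2.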

How the results depend on the processing

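For the mean of the 3 pull-downs against Input, 2 higher and 1 lower receptor genes became 4 and 2 with DESeq2, 3 and 4 without the filter, 7 and 7 with the replicate block and 4 and 14 with the replicate block and GC trend removed, and 1 was higher with limma on log2(FPKM + 1). For ODD, 1 and 0 became 3 and 1 with DESeq2, 3 and 1 without the filter, 7 and 3 with the replicate block, 4 and 7 with the GC trend also removed, and 0 higher with limma at both pseudocounts and with only the groups compared. For EVEN, 0 and 1 became 1 higher with DESeq2, 1 and 2 without the filter, 6 and 4 with the replicate block, 2 and 10 with the GC trend also removed, and 0 lower with limma and with only the groups compared. For LacZ, 1 and 0 became 3 and 1 with DESeq2, 3 and 1 without the filter, 6 and 5 with the replicate block, 4 and 8 with the GC trend also removed, and 0 higher with RLE factors, limma and only the groups compared. Against LacZ, 0 and 0 became 1 lower without the filter and 0 in all other settings run. The 7 partner genes called became 24 with the replicate block and 26 with the GC trend also removed. At a ratio of 2 between experiments, 5 higher and 6 lower became 3 and 1, and with edgeR's test of the experiment term, chosen after seeing the data, 13 and 12. That test takes libraries of the same experiment as replicates, so its counts do not measure spread between experiments. Leaving out 1 library at a time gave 0 to 3 higher and 0 to 1 lower for the pull-downs, 0 to 1 higher and 0 lower for ODD, 0 higher and 0 lower for EVEN, 0 to 1 higher and 0 lower for LacZ, 0 against LacZ, and 0 to 3 partner genes. A group left with 1 library was assumed to vary like the others. The cause of these changes was not tested. For DESeq2, limma, RLE factors, no filter, only the groups compared and libraries left out, no share of coding genes called is given. The same holds for the GC trend in ODD, EVEN and LacZ. Changed counts under these settings cannot be told apart from changes over all genes. Grik2 and Chrna3, called against Input without the block, kept their sign under every setting run. For Grik2 the kept sign says little, as its value in the mean of the 3 pull-downs was 0.07 with the GC trend removed. Of the genes called against Input only with the block or with the GC trend removed, several did not: in the mean of the 3 pull-downs Grik3 had 0.52 and Glrb 0.06 without Input replicate 1, Chrm2 1.12 and Glra1 -0.12 without Input replicate 2, and Gabra2 -0.00 with the GC trend removed. Beyond the calls given in the report, the block changed no other call of a named gene in the mean of the 3 pull-downs against Input. Depth limits what can be said of the 22 genes that were not tested, and 2 libraries a group limit the rest.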
